A study of Mus musculus with 6 samples.

Results

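Vomeronasal type 1 receptors (Vmn1r genes) and bitter taste receptors (Tas2r genes) were used here as a background reference for an expression array experiment on muscle stem cells, where neither family is expected to be transcribed. The set held every gene whose symbol was Vmn1r or Tas2r followed by a number, 117 Vmn1r and 34 Tas2r genes. These were 151 of the 20163 genes with a symbol in the deposited table. Of their 153 probe sets, 1 per gene was kept, that with the highest mean over the 6 arrays, a step that touched only Vmn1r208 and Tas2r117, which had 2 probe sets each. The rule used the symbol and, within a gene, the level, but no measured difference. It was chosen with earlier results of these data known.

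The cells were adult muscle stem cells from muscle of female C57BL/6J mice, 6 to 8 weeks old, grown for 2 days on Matrigel. All cultures then spent 6 h without serum in the presence of ALK3-Fc (200 ng/ml), a soluble BMP receptor, and so the vehicle cultures carried this BMP trap too. The 3 BMP6 cultures received 100 ng/ml BMP6, a bone morphogenetic protein, for 1 h, and the 3 vehicle cultures received its solvent. Each culture gave 1 array. The labels call these biological replicates 1 to 3, and the source names give the same mouse to both treatments in replicates 1 and 2. The source name of vehicle replicate 3 repeats mouse 2, while the column headers give it a code shared with BMP6 replicate 3, so its animal is not settled.

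Vmn1r proteins are G protein-coupled receptors of sensory neurons in the apical layer of the vomeronasal organ, where they detect pheromones and signal through Gnai2 and the channel Trpc2. Each such neuron expresses very few receptor genes and keeps the others silent. Tas2r proteins are the bitter receptors of type II taste cells, which signal through gustducin (Gnat3), Plcb2 and Trpm5. Bitter receptors have also been described outside the tongue, in airway and gut cells for example, so their silence in muscle cells is an expectation and not a measurement. The deposited table holds no detection call, and the values are log2 expression after RMA, on which a difference of 1 is a 2-fold difference. Probe sets differ in affinity, so a value inside the range of the receptors places a signal among theirs and does not measure an absence of RNA. Members of these families are close in sequence, and probes may be shared between paralogs. The part that this plays in any single receptor's value was not tested.

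The following 4 stretches of sequence around annotated gene starts show how the receptor loci differ from those of a BMP6-induced gene. They are those of the highest receptor (Tas2r138), the highest Vmn1r gene (Vmn1r86), the lowest receptor of all (Vmn1r35) and Dlx2, a homeobox transcription factor with the largest rise in BMP6. Each window runs from 250 bases before to 50 bases after the start, taken from RefSeq on GRCm38.p6, and is written 5′ to 3′ with every CG dinucleotide in capitals.

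Tas2r138, chr6:40613261-40613560, minus strand: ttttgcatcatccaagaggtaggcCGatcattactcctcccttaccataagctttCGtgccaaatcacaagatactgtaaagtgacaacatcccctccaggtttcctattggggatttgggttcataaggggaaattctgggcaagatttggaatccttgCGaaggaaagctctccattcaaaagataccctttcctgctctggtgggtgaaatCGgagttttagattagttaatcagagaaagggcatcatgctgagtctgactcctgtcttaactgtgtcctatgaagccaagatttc

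Vmn1r86, chr7:13102898-13103197, minus strand: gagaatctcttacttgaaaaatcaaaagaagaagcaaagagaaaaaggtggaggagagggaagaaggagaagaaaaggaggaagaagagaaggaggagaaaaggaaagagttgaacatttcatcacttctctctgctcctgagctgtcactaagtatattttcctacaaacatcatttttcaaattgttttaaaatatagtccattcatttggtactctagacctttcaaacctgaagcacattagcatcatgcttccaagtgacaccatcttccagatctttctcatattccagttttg

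Vmn1r35, chr6:66679635-66679934, minus strand: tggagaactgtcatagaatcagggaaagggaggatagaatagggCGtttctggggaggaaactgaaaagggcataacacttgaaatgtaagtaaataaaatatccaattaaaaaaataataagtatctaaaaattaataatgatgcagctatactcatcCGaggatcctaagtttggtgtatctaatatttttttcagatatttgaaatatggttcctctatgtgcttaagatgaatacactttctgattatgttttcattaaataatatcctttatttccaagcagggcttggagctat

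Dlx2, chr2:71546705-71547004, minus strand: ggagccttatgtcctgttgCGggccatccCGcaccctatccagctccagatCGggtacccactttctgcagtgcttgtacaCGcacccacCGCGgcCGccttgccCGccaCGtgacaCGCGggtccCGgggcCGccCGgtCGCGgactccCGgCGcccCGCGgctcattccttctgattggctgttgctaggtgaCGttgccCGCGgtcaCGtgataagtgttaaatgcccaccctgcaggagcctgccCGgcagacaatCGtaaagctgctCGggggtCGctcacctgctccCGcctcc

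The windows of the 3 receptors held 4, 0 and 2 CG dinucleotides in the order printed, and that of Dlx2 held 29. A window was listed for 133 of the 151 receptors. Their median was 1 CG dinucleotide (range 0 to 6) and a GC content of 35.7%, against 17 and 58.3% over the 14393 genes that had both a window and an array value. No CG at all was found in 43 receptor windows (32.3%), compared with 2.41% of all windows. The 10 genes called higher in BMP6 that had a window held 15 to 34. In 111 of the 133 receptor windows (83.5%) the annotated start was an ATG, and the lengths of 125 of the 151 receptor genes were multiples of 3. Most of these gene models therefore begin at the start codon, so that the last 50 bases of such a window are coding sequence and the site of transcription initiation is not given.

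**Figure D1:**
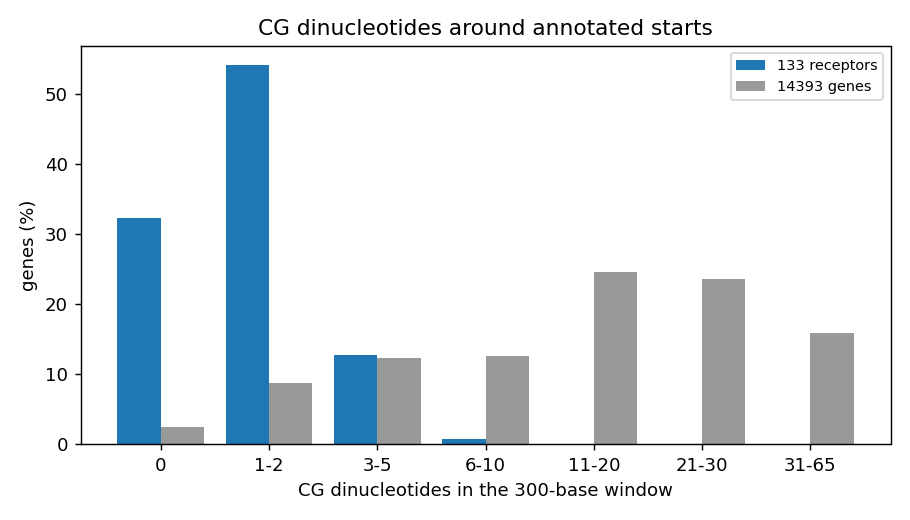
Share of genes, in percent (bars), by the number of CG dinucleotides in the 300-base window around the annotated start, for 133 receptors and for 14393 genes with an array value. No receptor window holds more than 6, while the median over all windows is 17.

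Searched on both strands, the letters CAGCTG, a form of the E-box that MyoD binds and which reads the same on either strand, occurred in 8 receptor windows (6.02%) and in 16.3% of all windows. The letters GGCGCC, a GC-rich element known to bind BMP-activated SMADs, also palindromic and overlapping CG, occurred in 0 of 133 receptor windows and in 17.9% of all windows. Neither share was adjusted for base composition, and receptor windows held less GC (median 35.7% against 58.3%). Across the receptors with a window, the array level and the GC content of the window had a Spearman correlation of 0.17 (n = 133), with 0.11 among Vmn1r (n = 103) and 0.36 among Tas2r genes (n = 30). These values are descriptions across genes of 1 set of arrays.

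The receptors filled the lowest part of the expression scale without being uniform. Averaged over the 6 arrays, their levels ran from 2.19 (Vmn1r35) to 5.97 (Tas2r138), with a median of 3.34, a 5th percentile of 2.51 and a 95th percentile of 4.74. The median of all genes was 6.41. Of the 151 receptors, 43 lay below 3, 75 between 3 and 4, 28 between 4 and 5, and 5 at 5 or more. The lowest and the highest receptor thus differed by more than 3 units of log2 although neither is expected to be transcribed.

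The receptor distribution was nearly the same on each array. Its median was 3.40, 3.42 and 3.25 in vehicle replicates 1, 2 and 3 and 3.31, 3.34 and 3.33 in BMP6 replicates 1, 2 and 3. The 95th percentile was 4.76, 4.83 and 4.71 in vehicle and 4.74, 4.67 and 4.78 in BMP6. Both treatments overlapped in the 2 summaries, with vehicle replicate 3 the lowest in the median and BMP6 replicate 2 in the 95th percentile. A similar share of all genes, 17.9% to 19.8%, lay at or below the receptors' 95th percentile on each array. Over all genes the arrays correlated at 0.994 to 0.997, and their medians were 6.38 to 6.45. RMA brings arrays to 1 distribution, so much of this likeness was set in advance and is no result about the receptors.

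**Figure D2:**
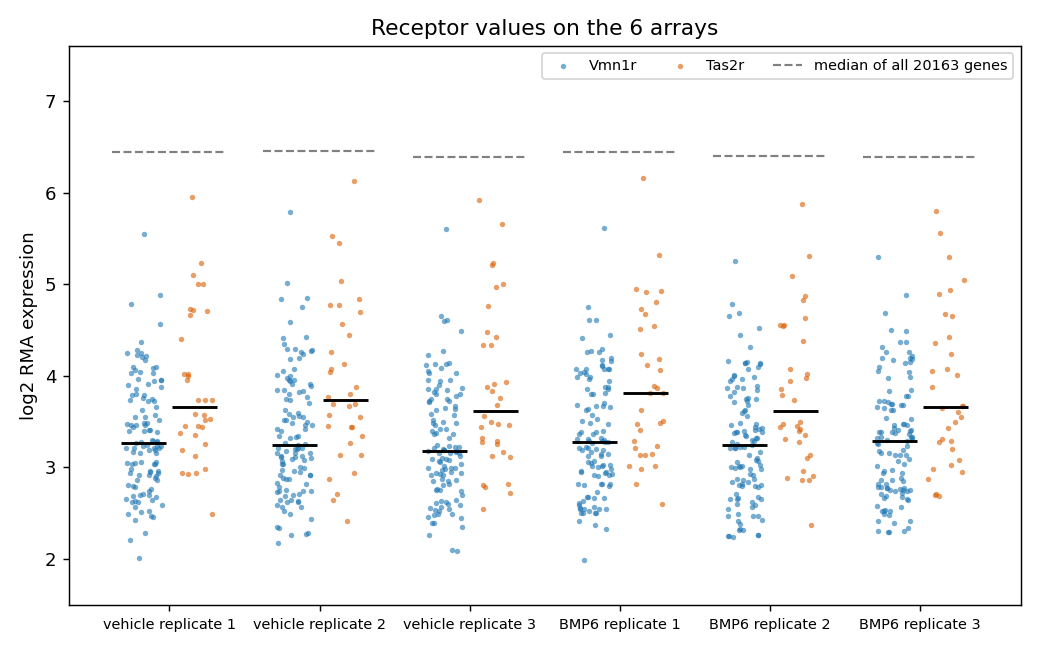
Values of the 117 Vmn1r genes (blue) and 34 Tas2r genes (orange) on each array, in log2 RMA expression, 1 point per gene. Black lines are family medians and dashed lines the median of all 20163 genes, which lies above every receptor on every array.

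Bitter receptors lay higher than vomeronasal receptors. The median level was 3.69 for Tas2r genes (range 2.56 to 5.97) and 3.26 for Vmn1r genes (range 2.19 to 5.52). Of the 34 Tas2r genes, 6 lay above the 95th percentile of the joint set, compared with 2 of the 117 Vmn1r genes, Vmn1r86 and Vmn1r208. This family difference is a description of probe set signals, and no test was made of it.

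The brightest receptor, Tas2r138, whose human counterpart responds to bitter thiourea compounds, had BMP6 values of 6.16, 5.88 and 5.79 (replicates 1, 2 and 3) against vehicle values of 5.95, 6.13 and 5.92. The groups overlapped. Vmn1r86 stood at 5.61, 5.26 and 5.29 in BMP6 and at 5.55, 5.78 and 5.60 in vehicle. Tas2r126 stood at 5.32, 5.31 and 5.55 in BMP6 and at 5.23, 5.45 and 5.66 in vehicle. BMP6 and vehicle values of both genes interleaved.

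Tas2r135 ranged from 4.73 (BMP6 replicate 1) to 5.53 (vehicle replicate 2) and Tas2r118 from 4.83 to 5.20. In RefSeq's gene order Tas2r143, Tas2r135 and Tas2r126 are direct neighbours, and they ranked 9, 4 and 3 among the 151 receptors. At the other end, Vmn1r35 stood at 1.99, 2.31 and 2.30 in BMP6 and at 2.02, 2.44 and 2.09 in vehicle. Vmn1r210, Vmn1r23, Vmn1r22 and Vmn1r8 followed with means of 2.30, 2.34, 2.35 and 2.37. Just inside the 95th percentile were Tas2r143 (4.72) and Vmn1r217 (4.71), and just outside it Vmn1r208 (4.76) and Tas2r110 (4.79).

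Another annotated gene overlapped 5 of the receptors in RefSeq, namely Tas2r119, Vmn1r4, Vmn1r51, Vmn1r52 and Vmn1r53. Their levels, 2.52 to 4.46, lay inside the range of the others. The brightest 5 were not among them.

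The other chemosensory receptor families lay in a comparable part of the scale. The 1022 odorant receptors (Or genes) had a median level of 3.77 with a 95th percentile of 5.56 and a maximum of 7.11, so their upper part reached further than that of the Vmn1r and Tas2r set. The 43 Vmn2r genes, pheromone receptors of the basal vomeronasal layer, had a median of 3.23 (2.45 to 5.88), and the 13 trace amine receptors (Taar) one of 4.20 (2.53 to 5.38). The 3 Tas1r genes, which encode the sweet and umami receptors, stood higher, at 5.41 to 5.98.

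The signalling partners of these receptors were mixed. Of 27 genes listed for vomeronasal, olfactory and taste transduction, 25 were measured, Trpc2 and Calhm3 not being listed under those symbols. Within the receptor band, at or below the receptors' 95th percentile of 4.74, lay 4 of the 25 (16%), against 18.6% of all genes. They were gustducin (Gnat3) at 3.14, the taste cell regulator Rgs21 at 3.58, and the olfactory channel subunits Cnga2 (4.38) and Cnga4 (4.46). Gnai2, a G protein subunit found in most cells, stood at 10.81 and the inositol trisphosphate receptor Itpr3 at 8.17. The taste channel Trpm5 lay between the 95th percentile and the highest receptor, at 5.23. None of the 25 was called in the comparison of treatments described next. The chloride channel Ano1 (0.27, SE 0.08) and Rtp2 (0.32, SE 0.13), a receptor transporting protein, had an unadjusted p under 0.05 and a limma adjusted p of 1. That was 8% of the 25, against 3.17% of all genes. With replicate number as a block, 4 of the 25 (16%) had an unadjusted limma p under 0.05, against 5.84% of all genes.

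BMP6 was compared with vehicle to ask which transcripts respond within 1 h, with limma's moderated test fitted to all 20163 genes and Benjamini-Hochberg adjustment over them. At an adjusted p under 0.05, 17 genes (0.0843%) were called, all higher in BMP6, and 0 of the 151 receptors were. Dropping BMP6 replicate 2 left 7 called genes and dropping BMP6 replicate 1 left 10, while 9 were called when either vehicle replicate 1 or 2 was dropped. Every receptor had an adjusted p of 1, and the lowest was 0.302 with the block. With replicate number as a block, 29 genes (0.144%) were called, 28 higher and 1 lower, the 17 among them, and again 0 receptors. At an unadjusted limma p under 0.05 stood 9 receptors (5.96%), 4 higher and 5 lower. All genes gave 3.17%, and genes at or below 4.74 gave 5.26%. With the block, 16 receptors (10.6%) had such a p, against 5.84% of all genes and 9.57% of genes at or below 4.74. Groups of 3 that did not overlap were found for 11 receptors (7.28%), against 7.71% of all genes, 3 of them higher and 8 lower in BMP6.

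The receptor differences (BMP6 minus vehicle, log2) had a median of -0.02, an SD of 0.11, a 5th percentile of -0.20 and a 95th percentile of 0.16. Over all genes the median was -0.0013, the SD 0.10 and the same percentiles -0.16 and 0.14. Negative differences were found for 88 of the 151 receptors (58.3%), for 58.6% of the odorant receptors and for 57.9% of all genes at or below 4.74, whose median was also -0.02. Above 4.74 the share of negative differences was 49.0%. The share of negative values among receptors thus lay close to that of all dim genes. Taken by replicate number, the median receptor difference was 0.02, -0.10 and 0.00 in replicates 1, 2 and 3.

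The receptor with the largest negative difference was Vmn1r170, with BMP6 values of 2.55, 2.43 and 2.66 and vehicle values of 3.06, 2.75 and 2.91, in the order of the replicate numbers. Its groups did not overlap, and the difference was -0.36 (SE 0.10, 95% interval -0.58 to -0.14, limma adjusted p = 1, unadjusted 0.00438). The largest positive difference was that of Vmn1r194, at 4.08, 3.99 and 4.14 in BMP6 and at 3.76, 3.74 and 3.90 in vehicle, 0.27 with an SE of 0.08 (limma adjusted p = 1, unadjusted 0.00695). These 2 genes and Vmn1r198 (-0.29, SE 0.10) had the lowest p among the receptors.

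Among Tas2r genes the largest positive difference was 0.24 (SE 0.10) for Tas2r109, and that of Vmn1r171 was 0.25 (SE 0.15). The difference of Vmn1r86 was -0.26 (SE 0.11). Differences larger than 0.2 in either direction were measured for 15 receptors (9.93%), compared with 4.40% of all genes and 8.39% of genes at or below 4.74. Over the 6 arrays a receptor's values spanned 0.35 at the median and 0.81 at most. The largest SDs over the 6 arrays were those of Vmn1r178 (0.32), Vmn1r84 (0.31) and Vmn1r174 (0.29), each with overlapping groups.

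The spread between replicates is given here beside the level. The residual SD within groups had a median of 0.13 among receptors and of 0.11 among all genes. Taken by level, the median of all genes was 0.13 between 3 and 4 and between 4 and 5, and it was 0.09 between 9 and 10. Receptors between 3 and 4 had a median of 0.12 (n = 75), near that of all genes of this level, and those between 4 and 5 one of 0.15 (n = 28). The 95th percentile of the absolute difference was likewise 0.23 for genes between 3 and 4 and 0.16 for genes between 9 and 10.

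**Figure D3:**
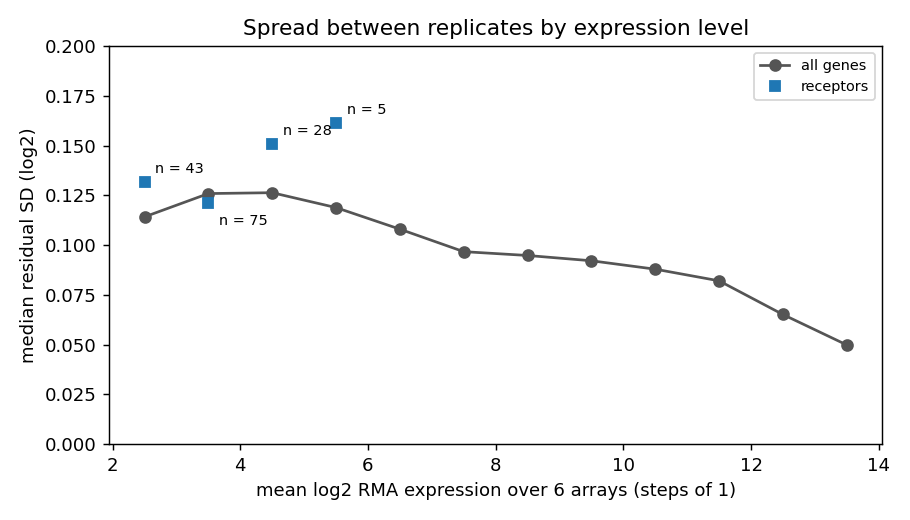
Median residual SD between replicates (log2) in steps of 1 on the level axis (mean log2 RMA expression over 6 arrays), for all genes (grey) and for receptors (blue squares, with the number of receptors). The grey median is highest from 3 to 5 and lowest in the brightest genes.

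All 17 called genes lay outside what the Vmn1r and Tas2r receptors showed, in level as well as in difference. Their differences, 0.64 to 1.97, each exceeded the largest receptor difference of 0.27, a range that only 0.798% of all genes left, 135 above it and 26 below -0.36. Their vehicle means ran from 6.33 to 10.60, each above the highest receptor at 5.97. The lowest was that of Smad6, an inhibitor of BMP receptor signalling, at 6.14, 6.62 and 6.21 in vehicle replicates 1, 2 and 3 and at 7.24, 7.14 and 7.44 in BMP6 (limma adjusted p = 0.0403). Next came Dlx2, at 6.66, 6.81 and 6.78 in vehicle and at 9.15, 8.64 and 8.38 in BMP6. In both genes every BMP6 value lay above every vehicle value. The brightest odorant receptor, with a mean of 7.11, exceeded the vehicle means of both, so their place above the receptors depends on the family used. In the 6 fits that each left out 1 array, all 17 genes kept their sign, but 7 of them stayed called in every fit. Pmepa1 lost its call in all 6, and Smad6, Pwwp2b, Cxcr4, Gadd45b and Ccn1 lost theirs in 5. These fits had no block. On all 6 arrays, the 17 stayed called with replicate number as a block, and 13 of them with the mouse number as a block.

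The other called genes, from Pwwp2b (7.15) and Cxcr4 (7.18) to Id1 (9.72) and Ccn1 (10.60), had vehicle means at least 1.18 above the highest receptor. Of the 3742 genes whose mean was at or below 4.74, 0 were called by limma, while 197 of them (5.26%) had an unadjusted p under 0.05. Of the 11773 genes above the highest receptor 17 were called. RMA compresses differences of dim probe sets, so that 0 calls at low levels does not show that such genes did not respond.

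**Figure D4:**
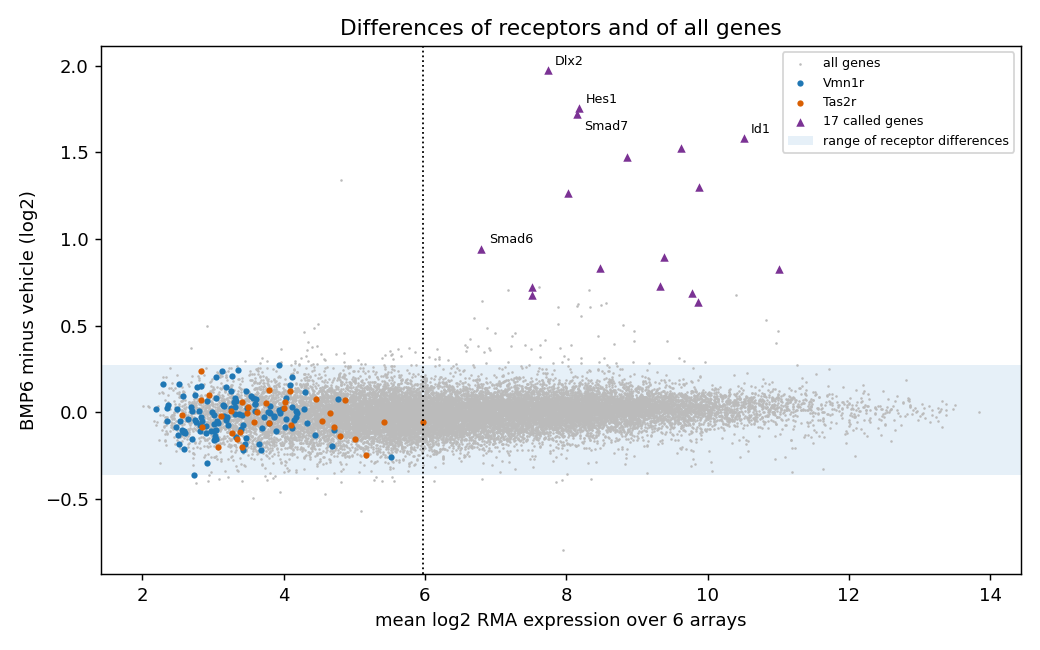
Difference between BMP6 and vehicle (log2) against mean log2 RMA expression over 6 arrays, for all genes (grey), Vmn1r (blue) and Tas2r genes (orange) and the 17 called genes (triangles). The shaded range spans the receptor differences from -0.36 to 0.27 and the dotted line marks the highest receptor at 5.97, and every triangle lies above the range and to the right of the line.

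A large difference also occurred at a low level without a call. Snord115, a small nucleolar RNA gene best known from brain and chosen here after its values were seen, stood at 5.95, 5.01 and 5.48 in BMP6 and at 2.85, 4.91 and 4.66 in vehicle. Vehicle replicate 1 lay far below the other 2, and the difference of 1.34 (SE 0.46) had a limma adjusted p of 1.

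Targets of BMP and Notch signalling were measured on both sides of the receptors' range. Of 26 listed genes, 8 (30.8%) were called in limma, all higher, against 0.0843% of all genes, and the median difference of the 26 was 0.36. The list was chosen with these results known. Its share of called genes, its direction and its median difference are therefore no independent evidence. Within the band lay Hamp, the iron hormone hepcidin that BMP6 induces in liver, with a mean of 4.25, and the Notch target Hey2, with 4.63. Hamp stood at 4.25, 4.01 and 4.22 in BMP6 and at 4.39, 4.43 and 4.21 in vehicle, a difference of -0.18 (SE 0.09). Hey2 differed by -0.19 (SE 0.12). Neither was called. Nrarp, Dlx1 and Msx2 lay between the edge of the band and the highest receptor, at 5.18, 5.52 and 5.70. Dlx1, a paralog of Dlx2, did not overlap between groups, with a difference of 0.33 (SE 0.08, limma adjusted p = 0.814), above the largest receptor difference.

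Lineage genes were then placed against the receptors. A gene was counted as within the band where its mean over the 6 arrays was at or below 4.74. Over 14 lists of lineage markers, 171 of 180 genes were measured, and 25 of them (14.6%) lay within the band, against 18.6% of all genes. At or below the highest receptor lay 79 (46.2%, against 41.6% of all genes), and at or below the receptor median 4 (2.34%, against 4.53%). The pooled share within the band joins lists that differed widely. It was 0% for the satellite cell, myogenic differentiation and Schwann cell lists and 57.1% for the hepatocyte list (n = 7).

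Genes of the muscle lineage lay outside the band. None of the 17 satellite cell genes and none of the 25 measured genes of myogenic differentiation was at or below 4.74. Pax7, which defines satellite cells, stood at 8.94, 8.94 and 8.84 in BMP6 and at 8.75, 8.86 and 8.82 in vehicle. Myf5 averaged 10.07, Myod1 12.20 and the intermediate filament gene Des 11.94. Myog averaged 7.92 and was lowest in replicate 3 of both treatments, at 8.65, 8.33 and 6.85 in BMP6 and 8.75, 7.94 and 7.03 in vehicle.

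The lowest satellite cell genes were Calcr (5.43), the calcitonin receptor of quiescent cells, and Msc (5.85), and the lowest differentiation gene was Myh2 (5.96), a fast myosin of mature fibres. These 3 lay above the band but below the highest receptor. Mef2c (6.00) lay just above that receptor. Housekeeping genes stood clear of both, from Tbp at 8.22 to Eef1a1 at 13.84.

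Markers of cells that dissociated muscle can also hold were placed next. Of 15 immune markers, 6 lay within the band and 11 at or below the highest receptor. The 6 were the B cell gene Cd79a (3.47), the macrophage gene Adgre1 (3.95), Itgam (4.56), Lyz2 (4.60), the T cell gene Cd3d (4.60) and Ptprc (4.66), the pan-leukocyte antigen CD45. Ptprc stood at 4.69, 4.62 and 4.51 in BMP6 and at 4.60, 4.99 and 4.55 in vehicle, and was above that array's 95th percentile of the receptors in vehicle replicate 2. Of the 6 genes within the band, 3 lay at or below the receptors' 95th percentile of each array. The macrophage genes Cd68 (6.60) and Laptm5 (6.56) lay above the highest receptor.

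Of 12 endothelial markers, the sialomucin Emcn (3.87) was the only one within the band, but 9 lay at or below the highest receptor. Pecam1 averaged 5.59, Cdh5 5.33 and the angiopoietin receptor Tek 5.22. Egfl7 was the highest, at 6.77. Of 13 pericyte and smooth muscle markers, Rgs5 (4.51) lay within the band, and Acta2 (9.72), the smooth muscle actin that cultured myoblasts also express, and Cspg4 (8.08) stood far above it.

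Of 15 measured fibro-adipogenic markers, the proteoglycan Lum (3.42) lay within the band, Dpp4 (4.85) just above it and Pdgfra at 6.13, with Gsn the highest at 8.63. No Schwann cell marker of 12 lay within the band, S100b being the lowest at 5.13. Sox10 stood at 6.75, and the neurotrophin receptor Ngfr (9.01) was the highest. None of the endothelial, immune, pericyte, fibro-adipogenic or Schwann cell markers was called. An unadjusted limma p under 0.05 was found for 3 fibro-adipogenic (20%) and 2 immune markers (13.3%), all lower. It was also found for 2 pericyte markers (15.4%), 1 higher and 1 lower, and all genes gave 3.17%. With replicate number as a block, 5 fibro-adipogenic (33.3%), 2 immune and 2 pericyte markers had such a p, against 5.84% of all genes. No endothelial or Schwann cell marker had one in either fit. In a bulk culture a lower marker signal from fewer cells cannot be told from one due to less RNA per cell, and the part of other cell types in the results was not tested.

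Genes of other mesenchymal fates were divided. Within the band lay 1 of 18 bone and cartilage genes, the bone sialoprotein Ibsp (4.74). It was at or below the array's own 95th percentile of the receptors on 3 of the 6 arrays. The cartilage matrix gene Matn1 (4.80) was its nearest neighbour above. The osteoblast factor Sp7 (5.47) and the hypertrophic collagen Col10a1 (5.15) lay below the highest receptor, and Runx2 (9.38) and the secreted phosphoprotein Spp1 (11.90) far above it. Of 6 tendon genes, tenomodulin (Tnmd, 3.90) lay within the band while the transcription factor Scx stood at 9.66. Of 10 adipocyte genes, Fabp4 (4.03) and Adipoq (4.45) lay within the band and Lpl (8.20) was the highest.

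**Figure D5:**
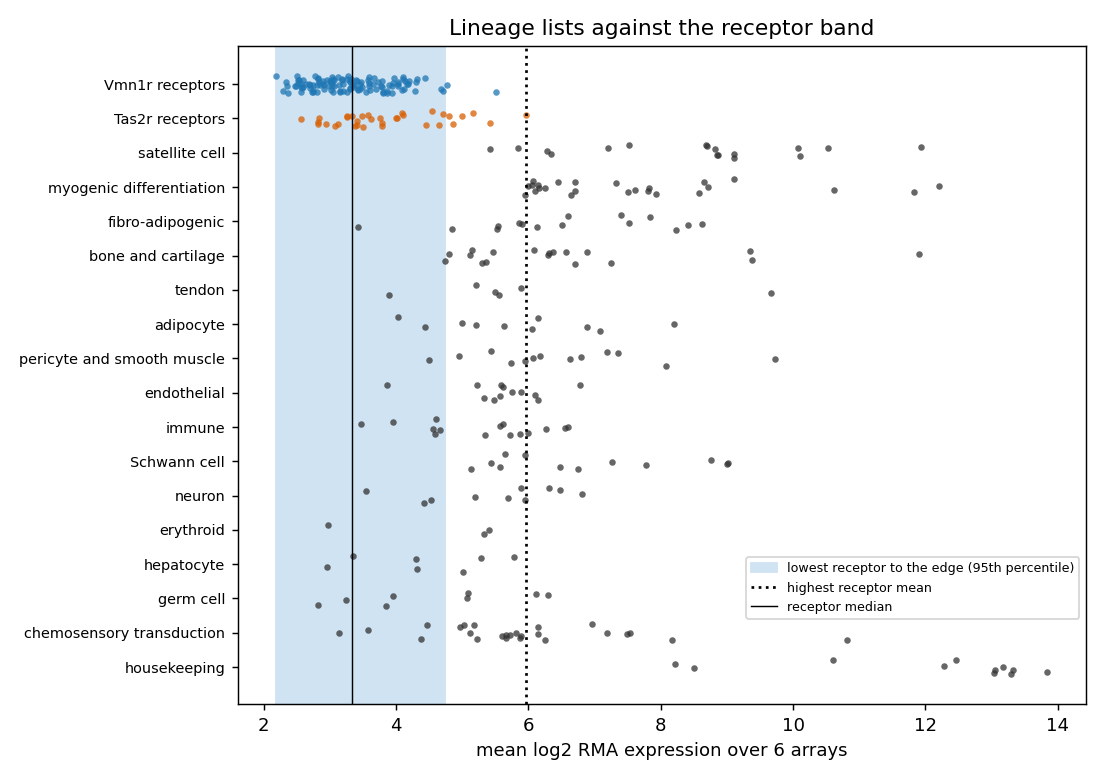
Mean log2 RMA expression over 6 arrays of each receptor and of each gene in 16 lists, 1 point per gene. The shaded band runs from the lowest receptor (2.19) to the 95th percentile (4.74), the thin line marks the receptor median and the dotted line the highest receptor (5.97), and no muscle or housekeeping gene falls in the band.

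Markers of distant tissues were also placed against the band, without assuming that they are as silent as the receptors. Of 7 measured hepatocyte genes, Cyp3a11 (2.95), F9 (3.36), Alb (4.31) and Ttr (4.32) lay within it and Ahsg, Tat and Apoa1 (5.79) above it. Of 8 germ cell genes, Sycp3 (2.83), Dazl (3.25), Ddx4 (3.85) and Stra8 (3.96) lay within it, while the protamine genes Prm1 (6.30) and Prm2 (6.12) exceeded the highest receptor. The erythroid genes Klf1 (5.34) and Alas2 (5.41) lay above it. Of 10 measured neuronal genes, Neurod1 (3.55), Slc17a6 (4.43) and Gad2 (4.53) lay within it and Map2 (6.81) was the highest. Some genes of unrelated tissues thus gave signals above 4.74. Whether these genes are transcribed in the cells was not tested.

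None of the 25 lineage genes within the band had a difference outside the range of the receptor differences. Only 1.12% of all genes at or below 4.74 left that range, so none among 25 says little about lineage genes. The median difference of the 25 was -0.05. Of them 7 were positive and 18 (72%) negative, where 57.9% of all genes at or below 4.74 were negative. None was called by limma. An unadjusted limma p under 0.05 was found for 1 (4%), against 3.17% of all genes and 5.26% of those at or below 4.74. That gene was Cd3d, at 4.59, 4.49 and 4.28 in BMP6 and at 4.92, 4.64 and 4.67 in vehicle, a difference of -0.29 (SE 0.11, limma adjusted p = 1). Its groups did not overlap, as was the case for 3 of the 25 (12%), against 7.71% of all genes and 8.74% of those at or below 4.74. Cd79a differed by -0.22 and Lyz2 by -0.15, both with overlapping groups.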

How the data were processed

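Expression was measured on Affymetrix arrays in 3 BMP6 and 3 vehicle cultures, the array type not being given in the sources used here. The authors deposited log2 values for each probe set. The submitters' processing notes name RMA and the package oligo, with versions and settings not given in the sources used here. RMA corrects background, brings arrays to 1 distribution and compresses differences of dim probe sets. The 2 deposited tables differed by at most 5e-09, and the table with symbols was used. Arrays have no read depth, so their number limits precision.

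From these values, the probe set with the highest mean was kept per symbol (21893 probe sets, 20163 genes). The 12867 probe sets without a symbol were not used. limma 3.58.1 in R 4.3.3 (lmFit, eBayes, two-sided, treatment only) was fitted to all genes and tested on simulated data, with called meaning an adjusted p under 0.05 (Benjamini-Hochberg over all genes). The fit had 4 residual and 5.72 prior degrees of freedom. SEs and intervals are limma's.

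The band edge was the 95th percentile of the receptor means. Members, lists and rules for naming genes were chosen with earlier results of these data known. The naming rule took the highest and lowest receptors and list genes, those nearest the edge, the largest differences, the lowest p, and all called genes. Further genes within the band or between the edge and the highest receptor, among them Trpm5, Nrarp, Dlx1, Msx2, Ano1, Rtp2, Ahsg and Tat, were named after their values were seen, as was Snord115. Values of 1 listed gene are not reported here. Windows were matched by symbol to RefSeq's GRCm38.p6 tables, in which all 151 receptors had a gene entry. Alternatives were averaged probe sets, 1 array left out, replicate number or mouse as a block, an intensity trend, genes above the band only, and other receptor families or edges. The labels call the replicates biological, but mouse numbers disagree for 1 sample, so p-values measure the spread between these samples. Pairing by number comes from the source names (replicates 1 and 2) and from codes in the column headers (all 3 pairs). Deviations of same-numbered arrays from their group means correlated at 0.31, 0.05 and 0.43 over all genes, and at 0.15, 0.10 and 0.19 over the receptors. The fit without the block was kept as the main one, with blocked values printed beside only part of the results they move.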

Additional observations from a re-analysis of the deposited data

How the results depend on the processing

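The band edge rested on the family and percentile that set it. Leaving out 1 array moved it only between 4.73 and 4.76, with 24 to 25 lineage genes within the band, and averaging probe sets gave 4.70 and 24. With Vmn1r genes alone the edge was 4.30 and 14 lineage genes lay within it, with Tas2r genes alone 5.25 and 39, and with odorant receptors, chosen after seeing the data, 5.56 and 55. The receptor maximum took in 79 and the receptor median 4, and 21 lay at or below the edge on each of the 6 arrays. The reference of genes named Olfr was not run, since 2 genes carry such a symbol. The count of called genes was 7 to 15 without 1 array, lowest without BMP6 replicate 2 and at 9 or 10 without BMP6 replicate 1, vehicle replicate 1 or vehicle replicate 2. It was 26 with an intensity trend, 22 among genes above the band only, and 29 with replicate number as a block. Blocking on the mouse number gave 15. In each of these fits 0 receptors and 0 genes at or below the highest receptor were called. The replicate block changed no call among the receptors or in the gene lists described. The median receptor difference stayed between -0.04 and 0.00 without 1 array. All 17 called genes kept their sign in every fit.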
